A study of Mus musculus with 10 samples.

Results

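The genes described here are 8 Ugt2 genes, which encode UDP-glucuronosyltransferases of the endoplasmic reticulum, and Ugdh, which encodes the enzyme that makes their sugar donor. They were chosen by name, as the genes whose Ensembl identifiers map to the symbols Ugt2b1, Ugt2b5, Ugt2b34, Ugt2b35, Ugt2b36, Ugt2b37, Ugt2b38, Ugt2a3 and Ugdh, and they are 9 of the 21939 genes measured. The choice was made with earlier results of these data known. Glucuronosyltransferases join glucuronic acid to steroids, bile acids, fatty acids, bilirubin and many drugs, which makes these compounds water soluble and ready for export into bile or blood. The sugar comes from UDP-glucuronate, which UDP-glucose dehydrogenase, the product of Ugdh, makes from UDP-glucose in the cytosol. The liver holds much of the body's capacity for this reaction, and several enzymes of drug conjugation are known as targets of the transcription factor Nrf2.

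RNA was sequenced from freshly isolated hepatocytes of 10 male mice, labelled as 8 to 9 weeks old without saying whether at injection or at sampling. The groups, of 1 genetic background, were wild-type C57BL6/j controls (3 mice), mice with floxed Nrf2 alleles (Nrf2 KO, 2 mice), mice with floxed p65 alleles (p65 KO, 2 mice) and mice in which both genes were floxed (DKO, 3 mice). All mice, the controls included, had received AAV8Cre 12 days earlier, an adeno-associated virus in which the hepatocyte-specific promoter of thyroxine-binding globulin drives Cre recombinase, so that recombination was directed to hepatocytes and not to the other cells of the liver. The names Nrf2 KO, p65 KO and DKO stand throughout for the libraries labelled so. Library totals ranged from 36170874 to 42518454 counts in control and from 35357766 to 40103546 in DKO, and were 37483082 and 49897382 in Nrf2 KO and 33707165 and 36267805 in p65 KO. All values below are normalized counts, that is, estimated counts divided by a factor for the size of the library. Of the 21939 genes, 13641 had at least 10 counts summed over the libraries and were tested, and all 9 Ugt2 and Ugdh genes were among them. Adjusted p-values come from edgeR's quasi-likelihood test with the Benjamini-Hochberg adjustment over all genes tested. A gene was called when its adjusted p was at most 0.05 and its level differed at least 2-fold, that is, by 1 or more on the log2 scale. A p that misses the threshold does not show that there was no difference.

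The targeted genes were examined first. Nfe2l2, which encodes Nrf2, had 2318, 1991 and 1990.2 normalized counts in the control libraries, 4739 and 5005 in Nrf2 KO, 1993 and 1997 in p65 KO, and 4111, 3434 and 5240 in DKO. All libraries labelled Nrf2 KO or DKO were thus above all the others, against the direction that a lost transcript would give. Against control the difference on the log2 scale was 1.21 for Nrf2 KO (adjusted p = 0.00488 from edgeR) and 1.02 for DKO (adjusted p = 0.00347), and against p65 KO it was 1.09 for DKO (adjusted p = 0.00903). The call was lost in Nrf2 KO without Nrf2 KO library 2 (adjusted p = 0.0804), and in DKO without control library 2, control library 3 or DKO library 3 (0.98, 0.98 and 0.85) and with libraries scaled to equal totals (0.93). Against p65 KO it was lost without p65 KO library 1 or 2 (adjusted p = 0.0679 and 0.0674), without DKO library 3 (0.92) and with equal totals (0.82). Rela, which encodes p65, had 1221, 1276 and 1269 normalized counts in the control libraries, 1268 and 1225 in Nrf2 KO, 1183 and 1209 in p65 KO, and 1488, 1241 and 1034 in DKO. The p65 KO libraries lay just below those of control, and DKO overlapped with control. The difference for p65 KO was -0.07 on the log2 scale (adjusted p = 0.765), and it turned to 0.11 with libraries scaled to equal totals. Counts summed over a gene cannot show whether a floxed exon is missing, so these totals do not check the labels.

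The 8 Ugt2 genes lie in a cluster on chromosome 5 of GRCm39, from 87037626 to 87572062, and each has 6 exons in its main transcript. Ugt2b34, Ugt2b1, Ugt2b35, Ugt2b36 and Ugt2b5 follow each other from 87037626 to 87288211, and Ugt2b37, Ugt2a3 and Ugt2b38 follow from 87388352 to 87572062. All are transcribed from the minus strand except Ugt2b35. Ugdh lies apart on the same chromosome, from 65570551 to 65593805 on the minus strand, with 12 exons. Reads could be divided between similar genes. Of all stretches of 100 bases, the length of a read, in its transcripts, Ugt2b5 shares 15.6% with Ugt2b38, and Ugt2b38 shares 24.2% with Ugt2b5. The values of this pair are therefore uncertain, above all those of the much lower Ugt2b38. Ugt2b1, Ugt2b35 and Ugt2b36 share no such stretch with another gene, and the other 4 genes share between 0.277% and 1.06%.

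In control hepatocytes, levels of different genes were compared as normalized counts per kilobase of the main transcript. Ugt2b5 (ENSMUSG00000054630) had the highest level, 22019 ± 4160 per kilobase (SD, n = 3), and lay above the other 8 genes in each library. Ugt2b36 (ENSMUSG00000070704) followed with 10099.5 ± 1448 per kilobase (SD, n = 3) and Ugt2b1 (ENSMUSG00000035836) with 8693 ± 1146 (SD, n = 3), and the ranges of these 2 genes overlapped. Ugt2b34 (ENSMUSG00000029260) had 6521 ± 863 per kilobase (SD, n = 3), below both in range. Ugt2a3 (ENSMUSG00000035780) had 4292 ± 667, Ugt2b35 (ENSMUSG00000035811) had 3641 ± 865 and Ugdh (ENSMUSG00000029201) had 2928 ± 876 per kilobase (SD, n = 3 each), and the ranges of these 3 genes overlapped. Ugt2b38 (ENSMUSG00000061906) was far lower, with 452 ± 242 per kilobase (SD, n = 3). Ugt2b37 (ENSMUSG00000057425) had the lowest level, 43.3 ± 36.8 per kilobase (SD, n = 3), which rested on between 22 and 147 estimated counts per library over the 10 libraries.

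The order differed in Nrf2 KO, where Ugt2b5 was still highest with 5784 ± 134 per kilobase (SD, n = 2). Ugt2a3 came next with 4285 ± 112 (SD, n = 2), and its range overlapped with those of Ugt2b36, at 4215 ± 307, and Ugt2b1, at 4156 ± 111 (SD, n = 2 each). Ugt2b35 was at 803 ± 11.3 per kilobase (SD, n = 2) and Ugdh at 985 ± 30.6 (SD, n = 2). In DKO the highest levels per kilobase were 5860 ± 571 for Ugt2b1 and 5512 ± 555 for Ugt2b5 (SD, n = 3 each), with overlapping ranges. In p65 KO the level of Ugt2b5 was 15583 ± 1638 per kilobase (SD, n = 2), above the other 8 genes in both libraries, as in control.

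Ugt2b5, Ugt2b35 and Ugt2b36, which were called and lower in both Nrf2 KO and DKO, are described first, in normalized counts that are not divided by length. Ugt2b5 had 66549, 47431 and 50173 normalized counts in the control libraries, 14609 and 14137 in Nrf2 KO, 35847 and 41603 in p65 KO, and 12529.5, 15221 and 13343 in DKO. The Nrf2 KO and DKO libraries overlapped with each other and lay below all p65 KO libraries, which in turn lay below all control libraries. Ugt2b35 had 17494, 15107 and 10732 normalized counts in control, 3153 and 3216 in Nrf2 KO, 10804 and 10095 in p65 KO, and 3366, 2791 and 2965 in DKO. Here too the Nrf2 KO and DKO libraries were low and overlapped, whereas p65 KO overlapped with control. Ugt2b36 had 35168, 26564.5 and 29588 normalized counts in control, 12050.5 and 13360 in Nrf2 KO, 22294.5 and 24063 in p65 KO, and 9896.5, 11171 and 12695.5 in DKO. The p65 KO libraries stood between control and the overlapping values of Nrf2 KO and DKO.

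Ugt2b34 had 22267, 20676 and 17097 normalized counts in control, 10645 and 11610.5 in Nrf2 KO, 13949 and 17227 in p65 KO, and 10436, 10661 and 11277 in DKO. Its Nrf2 KO and DKO libraries were below all others, and p65 KO overlapped with control. Ugt2b1 had 25756, 20960.3 and 20387 normalized counts in control, 10491 and 10895 in Nrf2 KO, 18406.5 and 23040 in p65 KO, and 14840.5, 13741 and 16650.1 in DKO. The DKO libraries of this gene lay above both Nrf2 KO libraries and below those of control and p65 KO. Ugt2a3 had 10777, 7885 and 9856 normalized counts in control, 9316 and 9667 in Nrf2 KO, 10210 and 12655 in p65 KO, and 9076, 10875 and 11192 in DKO, and each knockout overlapped with control.

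The remaining transferases were low and varied widely between mice of the same genotype. Ugt2b38 had 1377, 525 and 661 normalized counts in control, 193 and 358 in Nrf2 KO, 466 and 332 in p65 KO, and 1663, 512 and 530 in DKO. Control library 1 and DKO library 1 were the highest, and the libraries of both single knockouts lay below those of control and DKO. Ugt2b37 had 162, 46.2 and 37.4 normalized counts in control, 21.8 and 30.7 in Nrf2 KO, 47.7 and 73.7 in p65 KO, and 85.2, 32.5 and 70.9 in DKO. Both Nrf2 KO libraries were lowest, and the other genotypes overlapped. Ugdh had 11989, 8288 and 6747 normalized counts in control, 3096 and 2963 in Nrf2 KO, 8111 and 8114 in p65 KO, and 2804, 2727 and 4188 in DKO. For this gene p65 KO lay within the range of control, and all Nrf2 KO and DKO libraries lay below both.

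**Figure D1:**
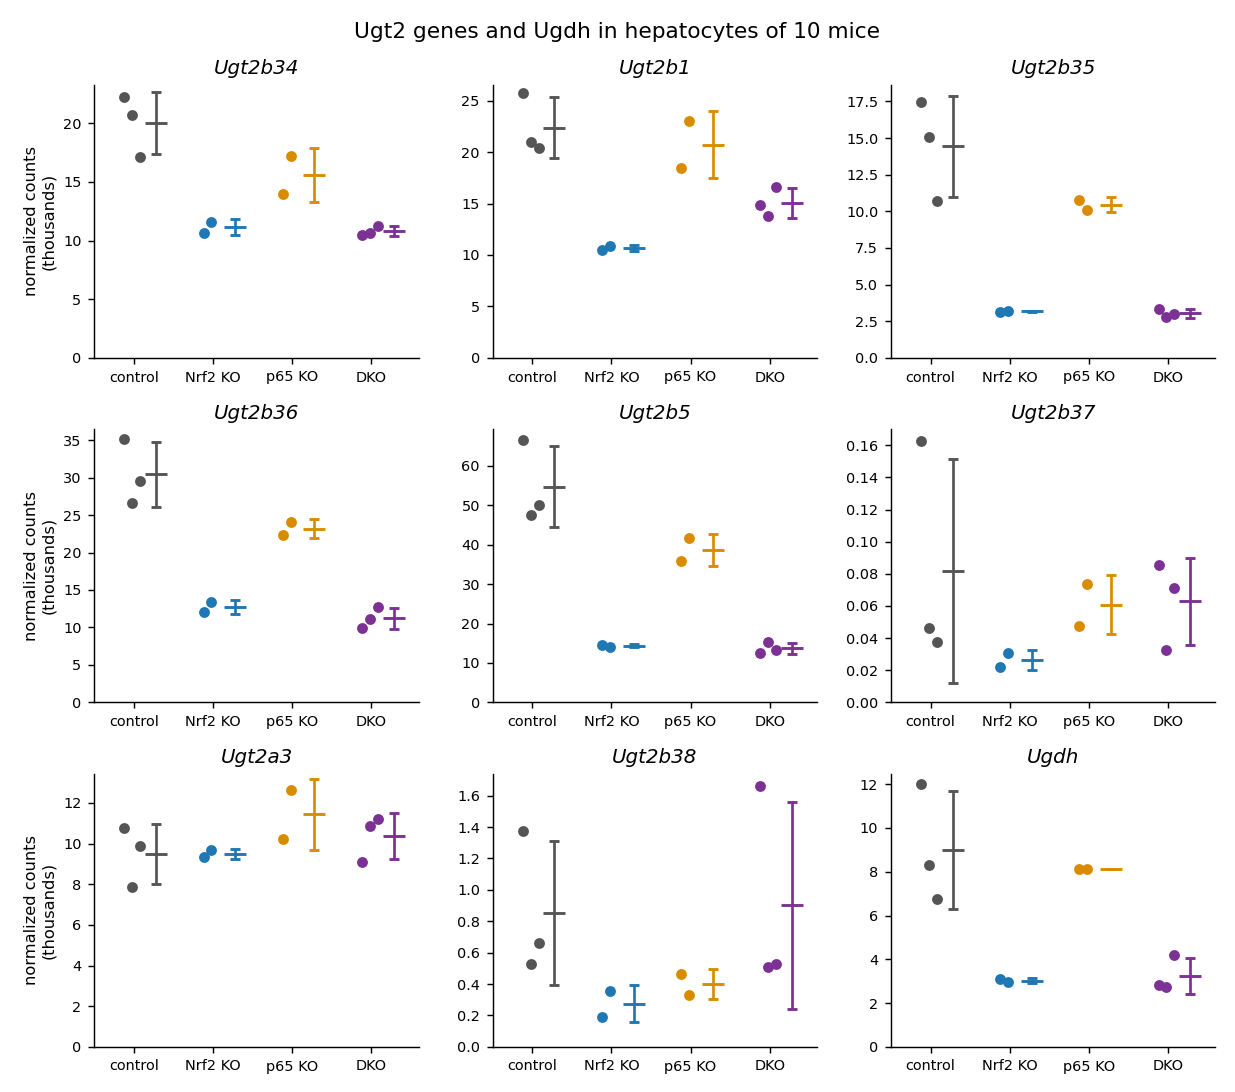
Normalized counts, in units of 1000, of the 8 Ugt2 genes and Ugdh in each library, grouped by the labelled genotype; points are mice, the dash beside them is the mean, and the bar is the SD (n = 3 in control and DKO, n = 2 in Nrf2 KO and p65 KO). Each axis starts at 0 and has its own scale. In Ugt2b5, Ugt2b34, Ugt2b35, Ugt2b36 and Ugdh the Nrf2 KO and DKO libraries lie together below the others, in Ugt2b1 the DKO libraries lie between Nrf2 KO and control, and in Ugt2a3 each knockout overlaps with control.

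To ask what loss of Nrf2 alone did to this pathway, Nrf2 KO was compared with control, as labelled, since Nfe2l2 totals were higher there and cannot check the labels. Of the 9 genes, 5 were called and lower, whereas 0.44% of all genes tested were called and lower in this comparison. Since the genes were chosen with earlier results of these data known, this contrast is a description and not a test of the family. Ugt2b35 decreased most, 4.54-fold, a difference of -2.18 on the log2 scale (standard error 0.193, adjusted p = 0.000487 from edgeR). Ugt2b5 decreased 3.81-fold (-1.93, standard error 0.174, adjusted p = 0.00052). Ugdh decreased 2.97-fold (-1.57, standard error 0.249, adjusted p = 0.0175), Ugt2b36 2.40-fold (-1.26, standard error 0.156, adjusted p = 0.00382) and Ugt2b1 2.09-fold (-1.06, standard error 0.154, adjusted p = 0.0112). In each of these 5 genes the groups did not overlap, a pattern that was not counted over all genes and is no further test. At an adjusted p of at most 0.05 without the demand for a 2-fold difference, 6 of the 9 genes were lower, against 0.594% of all genes, and the additional gene was Ugt2b34, at -0.85 on the log2 scale (standard error 0.145, adjusted p = 0.0253).

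In the same comparison, the log2 fold change of Ugt2a3 was -0.00, with a 95% confidence interval from -0.35 to 0.35, and its sign changed with the scaling (0.01 with libraries scaled to equal totals or equal upper quartiles) and when single libraries were left out (between -0.12 and 0.10). The values of Ugt2b37 and Ugt2b38 were both -1.63, with wide intervals from -3.08 to -0.17 and from -2.89 to -0.36, and neither passed the test (adjusted p = 0.461 and 0.354 from edgeR). Without control library 1 they were -0.66 and -1.10. The median log2 fold change of the 9 genes was -1.57, and that of all genes tested was 0.00185. The calls of Ugt2b5 and Ugt2b35 were the ones kept in Nrf2 KO without Nrf2 KO library 1 or Nrf2 KO library 2, so that the count was 2 in either case, also at the adjusted p alone, and it was 4 without control library 1 or 2. Without Nrf2 KO library 1 and library 2, respectively, the adjusted p rose to 0.149 and 0.19 for Ugt2b1, 0.0764 and 0.0641 for Ugt2b36, and 0.164 and 0.262 for Ugdh. Without control library 1, the log2 fold change of Ugt2b1 was -0.95, below the 2-fold threshold, and without control library 2, the adjusted p of Ugdh was 0.0523. The result for Ugt2b34 at the adjusted p alone was lost without control library 1, control library 2 or either Nrf2 KO library, with adjusted p-values up to 0.25. In a bulk sample of isolated cells, fewer cells that express a gene and less RNA per cell cannot be told apart.

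The 8 Ugt2 genes were also added up, which does not depend on how reads were divided between them. The sum was 179550, 139196 and 138531 normalized counts in the control libraries, 60479 and 63275 in Nrf2 KO, 112025 and 129088 in p65 KO, and 61893, 65004 and 68723 in DKO. The Nrf2 KO and DKO libraries overlapped and lay below those of p65 KO, which in turn lay below those of control. Of every 1000 counts in a library, the Ugt2 genes took 4.50, 3.79 and 3.49 in control, 1.63 and 1.57 in Nrf2 KO, 3.27 and 3.77 in p65 KO, and 1.47, 1.64 and 1.63 in DKO. On this scale, without the factor for library size, p65 KO overlapped with control, and Nrf2 KO with DKO. The mean sum was 152425 ± 23493 in control (SD, n = 3), 61877 ± 1977 in Nrf2 KO (SD, n = 2), 120556 ± 12065 in p65 KO (SD, n = 2) and 65206.5 ± 3419 in DKO (SD, n = 3). This was 40.6%, 79.1% and 42.8% of control in Nrf2 KO, p65 KO and DKO, and the log2 ratios were -1.30, -0.34 and -1.23. Without control library 1 they were -1.17, -0.20 and -1.09.

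The make-up of the sum also differed between the genotypes. Ugt2b5 made up 35.8% ± 1.54 of the Ugt2 counts in control (SD, n = 3), 23.2% ± 1.28 in Nrf2 KO (SD, n = 2), 32.1% ± 0.162 in p65 KO (SD, n = 2) and 21.0% ± 2.11 in DKO (SD, n = 3). Its share was lower in all Nrf2 KO and DKO libraries than in all others. The share of Ugt2a3 was 6.26% ± 0.759 in control (SD, n = 3), 15.3% ± 0.0886 in Nrf2 KO (SD, n = 2), 9.46% ± 0.487 in p65 KO (SD, n = 2) and 15.9% ± 1.09 in DKO (SD, n = 3), the opposite order. Ugt2b1 had the largest mean share in DKO, 23.1% ± 1.72 (SD, n = 3), compared with 14.7% ± 0.357 in control (SD, n = 3). Ugt2b35 made up 9.45% ± 1.57 in control (SD, n = 3) and 5.15% ± 0.0919 and 4.68% ± 0.655 in Nrf2 KO and DKO (SD, n = 2 and n = 3). Ugt2b36 made up 20.0% ± 1.19 in control (SD, n = 3), 20.5% ± 0.840 in Nrf2 KO (SD, n = 2) and 17.2% ± 1.24 in DKO (SD, n = 3), so that Nrf2 KO overlapped with control and DKO lay below it. Shares of a sum depend on each other, and they were not tested.

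For the question of what loss of p65 alone did, p65 KO was compared with control. None of the 9 genes passed the adjusted p of 0.05 in edgeR's test, 0 of 9, whereas 14.9% of all genes tested did so in either direction. At an unadjusted p under 0.05 there were 4 genes, Ugt2b5, Ugt2b34, Ugt2b35 and Ugt2b36, against 31.6% of all genes. DESeq2 gave an adjusted p of at most 0.05 for 1 gene, Ugt2b5 (0.0253), and limma for 0. With the 2-fold demand they called 0 of the 9 genes each, against 1074 of all genes by DESeq2 and 1026 by limma. For these 2 tools, shares of all genes at the adjusted p alone are not given here. Ugt2b5 was at -0.50 on the log2 scale (standard error 0.164, adjusted p = 0.0639 from edgeR), with a 95% confidence interval from -0.86 to -0.14. The values of Ugt2b35, Ugt2b36 and Ugt2b34 were -0.47, -0.39 and -0.36, with adjusted p-values between 0.103 and 0.111. Ugt2b38 was at -1.10, with an interval from -2.33 to 0.14, and at -0.57 without control library 1. Ugt2b37 was at -0.42 and turned to 0.54 without that library. Without control library 3, Ugt2b35 passed the adjusted p (0.0218), but its difference stayed below 2-fold.

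Ugt2b1 and Ugdh had log2 fold changes of -0.11 and -0.15 in p65 KO, with intervals from -0.44 to 0.22 and from -0.67 to 0.37, and with libraries scaled to equal totals both values turned positive (0.07 and 0.03). Without control library 1 they were 0.00 and 0.11, and without p65 KO library 1 Ugt2b1 was at 0.04. The value of Ugt2a3 was 0.27, with an interval from -0.08 to 0.61. The median over the 9 genes was -0.39, and over all genes tested 0.000896. Scaling to equal totals moved the median of genes averaging 50 or more normalized counts by 0.18 in this comparison, and the log2 ratio of the Ugt2 sum from -0.34 to -0.16. Marker genes of other liver cells moved in the same libraries, and their part in these values was not tested. All 10 Kupffer cell markers were called and higher in p65 KO, with a summed level of 5841 and 4313 normalized counts against 347, 904 and 693 in control, and Cd5l was the most abundant. The same held for all 7 markers of sinusoidal endothelial cells, which summed to 3496 and 2783 against 511, 1025 and 1171, with Clec4g as the most abundant. Of 7 stellate cell markers 5 were called and higher, and their sum was 1599 and 1604 against 142, 168 and 336, with Dcn as the most abundant. No marker of these 3 lists was at 0 in every library. Without p65 KO library 1, 6 of the 10 Kupffer cell calls, 1 of the 7 endothelial calls (Lyve1) and 3 of the 5 stellate calls remained. The Kupffer cell calls lost there were those of Clec4f, Adgre1, Csf1r and Timd4 (adjusted p up to 0.243 from edgeR), and that of Timd4 was also lost without any other library of control, Nrf2 KO or p65 KO. In the endothelial list Stab1 was also lost without control library 3 or p65 KO library 2, and Oit3 without control library 1 or 2 or p65 KO library 2 (adjusted p up to 0.262). In the stellate list Reln was lost without control library 1 or 2, either Nrf2 KO library or either p65 KO library, Lrat without control library 1 or 2 or p65 KO library 2, and Pdgfrb without control library 1 or p65 KO library 1 (adjusted p up to 0.211).

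The effect of losing both factors was examined in DKO against control, a comparison that shares its control libraries with those of the single knockouts. Of the 9 genes 4 were called and lower, against 1.02% of all genes tested. Ugt2b35 decreased 4.75-fold (-2.25 on the log2 scale, standard error 0.166, adjusted p = 9.04e-05 from edgeR) and Ugt2b5 3.99-fold (standard error 0.15, adjusted p = 9.29e-05). Ugdh decreased 2.78-fold (-1.48, standard error 0.215, adjusted p = 0.0042) and Ugt2b36 2.70-fold (-1.44, standard error 0.137, adjusted p = 0.000509). These 4 calls held when any 1 of the 10 libraries was left out. At the adjusted p alone, 6 of the 9 genes were lower, against 2.84% of all genes, and the additional genes were Ugt2b34 (-0.89, adjusted p = 0.00375) and Ugt2b1 (-0.57, adjusted p = 0.0337). The result for Ugt2b1 was lost without control library 1, control library 2, either Nrf2 KO library, DKO library 1 or DKO library 2, with adjusted p-values up to 0.127. Ugt2a3 was at 0.13 with an interval from -0.18 to 0.44, Ugt2b37 at -0.37 with one from -1.58 to 0.84, and Ugt2b38 at 0.08 with one from -0.97 to 1.14, which turned to -0.01 with libraries scaled to equal totals. Without control library 1 Ugt2b37 and Ugt2b38 were at 0.59 and 0.60, and Ugt2b38 was at -0.17, -0.08 and -0.71 without control library 2, control library 3 and DKO library 1. The median over the 9 genes was -0.89, and over all genes tested 0.0246. Marker medians in this comparison were 1.69 for Kupffer, 2.57 for other myeloid, 2.82 for T or NK and 2.65 for B cells. They were 0.88 for endothelial, 1.57 for stellate, 2.15 for erythroid, 0.08 for hepatocyte and -0.67 for cholangiocyte markers. Only 2 of 4 B cell, 4 of 6 T or NK cell and 3 of 5 cholangiocyte markers were tested. The B cell markers summed to at most 9.14 normalized counts in any library. The erythroid markers summed to 1141, 402 and 164 in the DKO libraries, against 51.9, 182 and 158 in control, and none was called. The part of these markers was not tested. In the DKO libraries 5 of the 10 Kupffer cell markers were called and higher, with sums of 2779, 1918 and 1574.5 normalized counts. All 5 calls were lost without control library 1 and also without DKO library 1, with adjusted p-values from edgeR up to 0.132 for Marco, 0.108 for C1qa, 0.0922 for C1qb, 0.101 for C1qc and 0.0704 for Cd5l, the most abundant gene. Marco also lost its call without control library 2 or 3, either p65 KO library or DKO library 2 and by limma (adjusted p = 0.0693), C1qc without control library 2 or 3, C1qa without control library 3 or DKO library 2, and C1qb without control library 3.

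**Figure D2:**
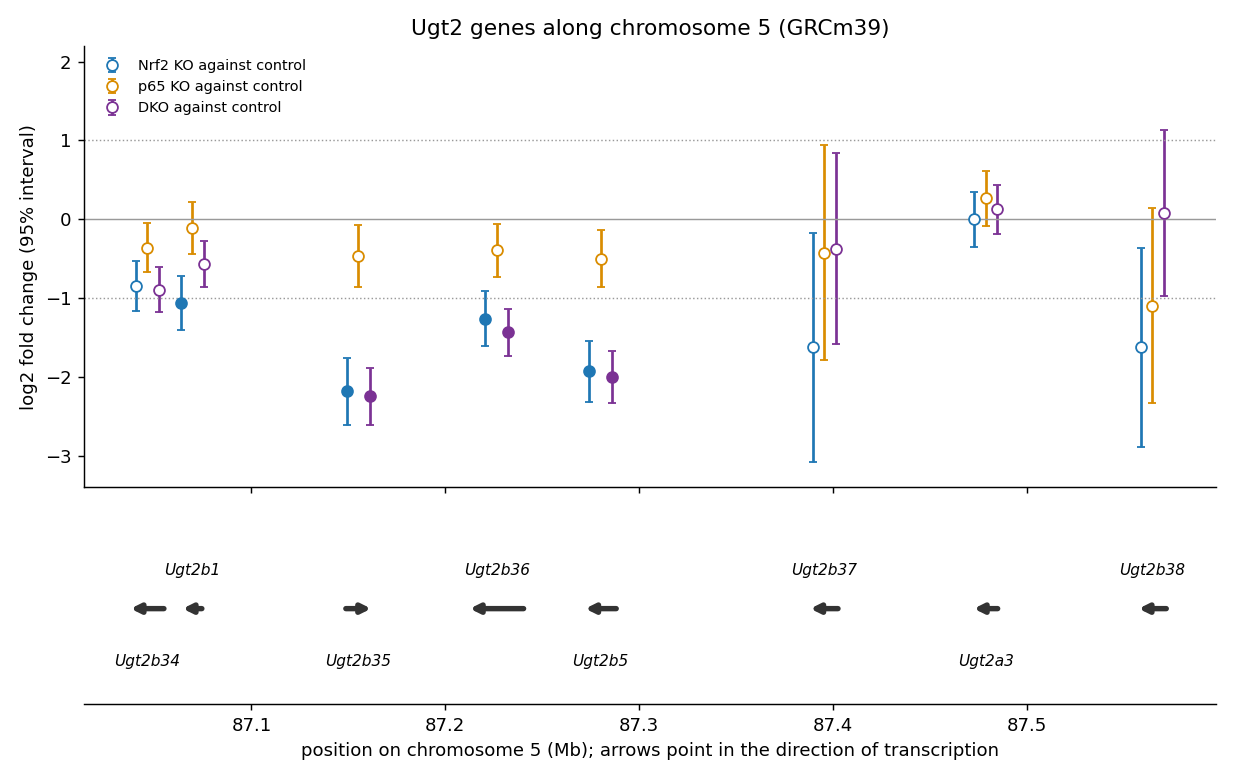
The 8 Ugt2 genes along chromosome 5 of GRCm39, with position in megabases on the horizontal axis and, above, the log2 fold change of Nrf2 KO, p65 KO and DKO against control; bars are 95% confidence intervals, filled points are called genes and open points are not, and points of 1 gene are set slightly apart. Ugt2b1, called in Nrf2 KO, and Ugt2b35, Ugt2b36 and Ugt2b5, called in Nrf2 KO and DKO, lie between 87064497 and 87288211. Ugt2b34 before them, which was lower in Nrf2 KO and DKO but short of 2-fold, and Ugt2b37, Ugt2a3 and Ugt2b38 farther along were not called.

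DKO was then compared with p65 KO, by the labels the loss of Nrf2 on a background without p65. The same 4 genes were called and lower, against 0.968% of all genes tested. The log2 fold changes were -1.78 for Ugt2b35 (standard error 0.176, adjusted p = 0.000908 from edgeR), -1.50 for Ugt2b5 (standard error 0.16, adjusted p = 0.0013), -1.32 for Ugdh (standard error 0.232, adjusted p = 0.016) and -1.04 for Ugt2b36 (standard error 0.148, adjusted p = 0.008). Ugt2b34 and Ugt2b1 were at -0.53 and -0.46 and missed the test (adjusted p = 0.0591 and 0.107 from edgeR). In both genes all DKO libraries lay below both p65 KO libraries, a pattern that was not counted over all genes. With equal totals, which moved all values down, both genes passed the adjusted p. By DESeq2 6 of the 9 genes passed the adjusted p here, these 2 among them, and by limma 4. With the 2-fold demand each tool called 4 of the 9, against 453 of all genes by DESeq2 and 263 by limma. Shares of all genes at the adjusted p alone are not given here for these tools. The remaining values were -0.14 for Ugt2a3 (interval from -0.49 to 0.21), 1.18 for Ugt2b38 (from -0.06 to 2.42) and 0.05 for Ugt2b37, which turned to -0.23 with equal totals. Without DKO library 1 Ugt2b38 was at 0.39 and Ugt2b37 at -0.23, and Ugt2b37 was also negative without p65 KO library 1 (-0.23) or DKO library 3 (-0.04). Ugt2a3 was at 0.02 without p65 KO library 2. The call of Ugt2b36 was lost without p65 KO library 2 (log2 fold change -0.99) and without DKO library 1 (-0.95). That of Ugdh was lost without p65 KO library 1, p65 KO library 2 or DKO library 1, with adjusted p-values of 0.0816, 0.0831 and 0.063. The count was 2 without p65 KO library 2 or DKO library 1. The median was -0.53 over the 9 genes and 0.000301 over all genes tested. Medians of markers in this comparison were -1.21 for Kupffer cells, -0.99 for endothelial, -2.03 for stellate and 3.34 for erythroid cells, and their part was not tested. The log2 ratio of the Ugt2 sum was -0.89 and became -1.16 with libraries scaled to equal totals, which moved the median of genes averaging 50 or more normalized counts by -0.27.

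The converse comparison, DKO against Nrf2 KO, asked whether loss of p65 changed these genes once Nrf2 was lost. In edgeR's test 0 of 9 genes passed the adjusted p of 0.05, and 0.513% of all genes did. At an unadjusted p under 0.05 there were 2 genes, Ugt2b1 and Ugt2b38, against 14.4% of all genes by edgeR. DESeq2 passed 1 gene, Ugt2b1 (adjusted p = 0.0315), and limma 0. With the 2-fold demand these tools called 0 of the 9 genes each, against 296 of all genes by DESeq2 and 85 by limma. Their shares of all genes at the adjusted p alone are not given here. Ugt2b1 was at 0.50 on the log2 scale (standard error 0.151, adjusted p = 0.184 from edgeR), with an interval from 0.16 to 0.83, and Ugt2b38 and Ugt2b37 were at 1.71 (from 0.44 to 2.98) and 1.25 (from -0.20 to 2.70). In these 3 genes, none of which passed edgeR's adjusted p, all DKO libraries lay above both Nrf2 KO libraries. The share of all genes with such a separation was not counted. Without DKO library 1 Ugt2b38 was at 0.92. The values of Ugt2b5, Ugt2b35 and Ugt2b34 were -0.07, -0.07 and -0.04, with intervals from -0.43 to 0.29, from -0.46 to 0.33 and from -0.35 to 0.27, and Ugt2b36 was at -0.17 with an interval from -0.50 to 0.15. Ugdh was at 0.10, with an interval from -0.42 to 0.62, and turned to -0.00 with libraries scaled to equal totals and to -0.12 without DKO library 3. Ugt2b34 was at 0.02 without Nrf2 KO library 2. Ugt2b35 stayed negative when single libraries were left out but reached 0.04 among the other alternatives. The log2 ratio of the Ugt2 sum was 0.08 and changed sign to -0.019 with that scaling. The median was 0.10 over the 9 genes and 0.00787 over all genes tested. The Kupffer cell markers had a median of 2.08 here, and 1 of the 10, Cd5l, was called and higher (2.43). Its call remained without control library 1 or Nrf2 KO library 1 and was lost without any of the other libraries (adjusted p up to 0.239 from edgeR). The call of Cd5l was also lost by edgeR with equal totals (adjusted p = 0.0648) and with the mean filter (0.0508). The same held with only the 2 genotypes compared (0.0791) and with the replicate block (0.0999). The part of these cells was not tested.

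Whether the effect of Nrf2 loss itself differed with the state of p65 was tested as an interaction, the log2 fold change of DKO against p65 KO minus that of Nrf2 KO against control. By edgeR 0 of 9 genes passed the adjusted p, as 0.469% of all genes did. At an unadjusted p under 0.05 there were again Ugt2b1 and Ugt2b38, 2 of 9 genes, against 13.8% of all genes by edgeR. DESeq2 and limma passed 0 of the 9 each, and with the 2-fold demand they called 249 and 66 of all genes. The interaction was 0.61 for Ugt2b1 (adjusted p = 0.255), with an interval from 0.14 to 1.07, and 2.80 for Ugt2b38 (adjusted p = 0.175), with an interval from 1.03 to 4.57 and values between 2.02 (without DKO library 1) and 3.32 (without Nrf2 KO library 2). It was 0.43 for Ugt2b5 (from -0.08 to 0.94), 0.40 for Ugt2b35 (from -0.16 to 0.96) and 0.25 for Ugdh (from -0.49 to 0.98, -0.03 with libraries scaled to equal totals and -0.01 without control library 1). For Ugt2b34, Ugt2b37 and Ugt2a3 it was 0.32, 1.68 (0.71 without control library 1) and -0.14 (0.03 without p65 KO library 2), and for Ugt2b36 it was 0.22 and turned to -0.06 with equal totals. The median was 0.40 over the 9 genes and 0.0121 over all genes tested.

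Because Ugt2b38 shares reads with Ugt2b5, the pair was also followed as a sum. Ugt2b5 and Ugt2b38 together had 67926, 47956.5 and 50834.5 normalized counts in control, 14802 and 14495 in Nrf2 KO, 36313 and 41934.5 in p65 KO, and 14193, 15732.5 and 13873 in DKO. As for Ugt2b5 alone, all Nrf2 KO and DKO libraries lay below those of p65 KO, and these below those of control. Ugt2b38 amounted to 2.07%, 1.11% and 1.32% of Ugt2b5 in control, 1.32% and 2.53% in Nrf2 KO, 1.30% and 0.797% in p65 KO, and 13.3%, 3.36% and 3.97% in DKO. The ratio was thus highest in the 3 DKO libraries.

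The genes around the cluster were compared with it. Within 1 Mb, 8 other genes were tested, among them Ythdc1 on the side of Ugt2b34 and Sult1b1 on that of Ugt2b38, and the lowest adjusted p among them by edgeR was 0.0691, for Sult1b1 in p65 KO. The adjusted p of 0.05 was passed by 0.726% of all genes tested in Nrf2 KO and by 5.45% in DKO, against 14.9% in p65 KO, so that 8 genes say little about the surroundings of the cluster. The log2 fold change of Ythdc1, which encodes a reader of methylated RNA, was 0.01 in Nrf2 KO and 0.26 in DKO. Sult1b1 and Sult1d1, which encode sulfotransferases, had 0.08 and 0.61 in Nrf2 KO and 0.06 and 0.53 in DKO.

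The sequence before the transcription start was examined because 4 neighboring genes of the cluster were called and lower in Nrf2 KO and Ugt2a3 was not. Windows of 250 bases before to 50 bases after the start of the main GENCODE transcript were cut from the GRCm39 genome. They covered 21757 protein-coding genes, among them all 9 described here. The letters GTTANNNNTTAAC were chosen after the sequences had been seen to share them, and were searched on both strands. They occurred in the windows of 7 of 7 Ugt2b genes and in 39 of all windows (0.179%), 32 of them at other genes. Ugt2a3 differed from them in 1 letter and Ugdh in 3. TGACNNNGC, the core of the antioxidant response element to which Nrf2 binds, was found in 0 of the 9 windows and in 12.5% of all windows on either strand. A match is a description, not a site or a cause, and the absence of these letters concerns only this window.

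Of the 8 Ugt2 genes, Ugt2b34, Ugt2b37, Ugt2a3 and Ugt2b38 were not called. Ugt2b34 was lower but short of 2-fold, at -0.85 on the log2 scale in Nrf2 KO and -0.89 in DKO. The stretches that hold the match are shown for all 8. Each has 43 bases, runs 5′ to 3′ on the strand of its gene, lies before the first exon and overlaps no exon, and capitals mark the 13 bases of the match or, in Ugt2a3, of the nearest sequence. The positions on GRCm39 are chr5:87054842-87054884 on the minus strand for Ugt2b34, chr5:87074424-87074466 (minus) for Ugt2b1, chr5:87148634-87148676 (plus) for Ugt2b35, chr5:87240451-87240493 (minus) for Ugt2b36 and chr5:87288233-87288275 (minus) for Ugt2b5. Those of the genes farther along the cluster are chr5:87402698-87402740 for Ugt2b37, chr5:87485081-87485123 for Ugt2a3 and chr5:87572099-87572141 for Ugt2b38, all on the minus strand.
Ugt2b34: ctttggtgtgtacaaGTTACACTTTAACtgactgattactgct
Ugt2b1: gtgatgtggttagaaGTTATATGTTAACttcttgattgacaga
Ugt2b35: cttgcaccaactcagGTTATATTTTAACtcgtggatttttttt
Ugt2b36: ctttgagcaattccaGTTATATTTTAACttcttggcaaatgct
Ugt2b5: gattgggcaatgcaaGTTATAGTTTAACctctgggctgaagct
Ugt2b37: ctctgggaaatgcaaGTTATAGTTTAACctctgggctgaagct
Ugt2a3: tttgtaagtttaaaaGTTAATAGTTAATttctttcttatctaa
Ugt2b38: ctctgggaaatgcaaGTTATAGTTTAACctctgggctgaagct
The stretches of Ugt2b37 and Ugt2b38 are identical, and 90.7% of their bases equal those of Ugt2b5, although the level of Ugt2b5 in control was far above theirs. Identity with Ugt2b5 is 74.4% for Ugt2b36, 55.8% for Ugt2b34, 53.5% for Ugt2b1 and Ugt2b35, and 37.2% for Ugt2a3.

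Other genes of glucuronidation were followed as lists. Over all 13641 genes tested, 60 were called and lower and 15 called and higher in Nrf2 KO against control, 210 and 689 in p65 KO, 139 and 186 in DKO, and 132 and 111 in DKO against p65 KO. Of 14 other glucuronosyltransferase genes 11 were tested. Called and lower were 1 in Nrf2 KO, 2 in DKO against control and 2 in DKO against p65 KO, and no other call was made in this list. Its median log2 fold change was -0.22 in Nrf2 KO, -0.04 for p65 KO and -0.23 for DKO. Ugt1a6a, which encodes a phenol-conjugating enzyme, had 6251, 6374 and 5626 normalized counts in control, 2213 and 2123 in Nrf2 KO, 5542 and 5150.1 in p65 KO, and 1243, 2508 and 1887 in DKO. All Nrf2 KO and DKO libraries lay below the others, and the log2 fold change was -1.49 for Nrf2 KO (adjusted p = 0.0172 from edgeR) and -1.69 for DKO (adjusted p = 0.00149). In DKO Ugt1a6b decreased as well (-1.26, adjusted p = 0.00325). Against p65 KO the values in DKO were -1.51 for Ugt1a6a and -1.38 for Ugt1a6b. The call of Ugt1a6a in Nrf2 KO was lost without control library 1, control library 2 or either Nrf2 KO library (adjusted p between 0.0586 and 0.248), and that against p65 KO without p65 KO library 1 (adjusted p = 0.052).

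The most abundant of these genes was Ugt1a1, which encodes the bilirubin-conjugating enzyme, with 15595 ± 992 normalized counts in control (SD, n = 3), 14868 ± 616 in Nrf2 KO (SD, n = 2), 19156 ± 1722 in p65 KO (SD, n = 2) and 10515 ± 2868 in DKO (SD, n = 3). It was not called in any comparison. The Ugt1a genes share their last exons, and between 52.3% and 77% of their stretches of 100 bases occur in another gene, so that single values are uncertain. Ugt1a9, for example, had 4938 and 14282 normalized counts in the 2 p65 KO libraries. The summed Ugt1a genes had 35536 ± 379 normalized counts in control (SD, n = 3), 25352 ± 780 in Nrf2 KO (SD, n = 2), 42779 ± 4589 in p65 KO (SD, n = 2) and 26917 ± 5751 in DKO (SD, n = 3). As for the Ugt2 sum, the Nrf2 KO and DKO libraries overlapped and lay below control, but p65 KO lay above control and not below it.

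The supply of UDP-glucuronate and its other uses were represented by 18 genes besides Ugdh. In Nrf2 KO 1 was called and lower, as in DKO against control and in DKO against p65 KO, whereas 3 were called and higher in p65 KO. The median log2 fold change was -0.08 for Nrf2 KO, 0.06 for p65 KO and -0.00 for DKO. The gene lower in Nrf2 KO and DKO was Entpd5, which encodes a phosphatase of the endoplasmic reticulum that hydrolyzes the UDP left by glycosyl transfer. It had 10833, 9899 and 7897 normalized counts in control, 3791 and 3209.8 in Nrf2 KO, 9691 and 9771 in p65 KO, and 3003, 3374 and 5040.4 in DKO. Like Ugdh it was low in Nrf2 KO and DKO, and p65 KO lay within control. The log2 fold changes were -1.45 in Nrf2 KO (adjusted p = 0.0151 from edgeR), -1.33 in DKO (adjusted p = 0.00375) and -1.35 in DKO against p65 KO (adjusted p = 0.00921). The call in Nrf2 KO was lost without control library 1, control library 2, Nrf2 KO library 1 or Nrf2 KO library 2 (adjusted p between 0.0549 and 0.25), and that against p65 KO without p65 KO library 1 or 2 (adjusted p = 0.0559 and 0.0595). Slc35d1, which encodes a transporter of UDP-glucuronate into the endoplasmic reticulum and was named for this role after its values had been seen, was at -0.64 in Nrf2 KO (adjusted p = 0.0995) and at -0.71 in DKO (adjusted p = 0.0126), short of 2-fold.

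In p65 KO the called genes of this list were Gys2, which encodes liver glycogen synthase, Gulo, which encodes the last enzyme of ascorbate synthesis, and Hk2, a hexokinase gene with at most 34.5 normalized counts in any library. Gys2 had 4689.97, 4290.4 and 5923 normalized counts in control and 9737 and 12972 in p65 KO, a log2 fold change of 1.19 (adjusted p = 0.0113 from edgeR), which was lost without p65 KO library 2 (adjusted p = 0.068). Gulo increased by 1.02 (adjusted p = 0.0213), and this was lost without control library 2, control library 3, p65 KO library 1 or p65 KO library 2 (adjusted p up to 0.0965). The call of Hk2 was lost without control library 1 or p65 KO library 1 (adjusted p up to 0.139), so that 1 of the 3 calls remained without either p65 KO library. The gene with the highest mean was Rgn, which encodes a lactonase of the same pathway, with 24839 ± 1226 normalized counts in control (SD, n = 3) and no call.

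Transporters of glucuronides were a list of 9 genes, of which 2 were called and lower in Nrf2 KO, 1 in DKO and 1 in DKO against p65 KO, and 1 was called and higher in p65 KO. The median log2 fold change was -0.04 for Nrf2 KO, 0.29 for p65 KO and -0.24 for DKO. Abcc3, which encodes an exporter of conjugates to the blood, had 9159, 11189.6 and 10670.1 normalized counts in control, 1048 and 137 in Nrf2 KO, 10123 and 7721 in p65 KO, and 337, 727 and 352 in DKO. All Nrf2 KO and DKO libraries were far below the others, though the pair of Nrf2 KO libraries differed widely. The log2 fold change was -4.13 in Nrf2 KO (adjusted p = 0.0253 from edgeR), -4.45 in DKO (adjusted p = 0.00304) and -4.24 in DKO against p65 KO (adjusted p = 0.0086). In Nrf2 KO the call was lost when any 1 of the 3 control libraries or p65 KO library 2 was left out (adjusted p between 0.0503 and 0.0702), and the log2 fold change moved to -3.30 and -6.24 when a Nrf2 KO library was left out. Abcg2, which encodes an exporter to bile, was at -1.16 in Nrf2 KO (adjusted p = 0.0253), a call lost when any 1 control or Nrf2 KO library was left out (adjusted p up to 0.391). Slco1a4, which encodes an uptake carrier, was at 1.19 in p65 KO (adjusted p = 0.0373) and lost its call without control library 1 or 2, either Nrf2 KO library or either p65 KO library (log2 fold changes between 0.87 and 1.37). Slco1b2, another uptake carrier, had the highest mean and was not called, with 26367 ± 1365 normalized counts in control (SD, n = 3).

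Among 18 genes of other conjugation reactions, such as sulfation and methylation, 1 gene was called, which was higher in p65 KO, in DKO and in DKO against Nrf2 KO. The median log2 fold change was 0.10 for Nrf2 KO, 0.13 for p65 KO and 0.32 for DKO. The called gene was Nnmt, which encodes nicotinamide N-methyltransferase, with 1023, 401 and 700.4 normalized counts in control, 914 and 884 in Nrf2 KO, 1799 and 2353 in p65 KO, and 3518, 4503 and 3219 in DKO. The DKO libraries were highest and the control libraries overlapped with Nrf2 KO. The log2 fold change was 1.55 in p65 KO (adjusted p = 0.00846 from edgeR), 2.41 in DKO (adjusted p = 0.00138) and 2.06 in DKO against Nrf2 KO (adjusted p = 0.0184), the last of which was lost without either Nrf2 KO library (adjusted p = 0.155 and 0.171).

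A list of 23 known Nrf2 targets, none of them a Ugt2 gene, was set beside the family. Called and lower were 10 in Nrf2 KO, 1 in p65 KO, 13 in DKO and 9 in DKO against p65 KO, and the median log2 fold change was -1.12, -0.37, -1.34 and -0.87 in this order. Of the 10 calls in Nrf2 KO, 6 remained without control library 1, 5 without Nrf2 KO library 1 and 4 without Nrf2 KO library 2, and of the 9 against p65 KO 5 remained without p65 KO library 1. The calls in Nrf2 KO included the glutathione transferase genes Gsta1 (-4.38), Gstm3 (-2.97), Gstm1 (-2.96) and Gsta2 (-2.36), of which Gsta1 lost its call without control library 1 or either Nrf2 KO library (adjusted p between 0.0507 and 0.228 from edgeR) and by limma (adjusted p = 0.105), and Gstm3 without Nrf2 KO library 2 (adjusted p = 0.19). In DKO the largest changes were those of Gsta1 (-5.13), Gstm1 (-3.27), Gsta2 (-2.57) and Aox1 (-2.52), which encodes aldehyde oxidase. Against p65 KO, DKO had Gsta1 at -4.59, Gstm3 at -2.60 and Gstm1 at -2.56, calls that held when any 1 library was left out. Osgin1, an oxidative stress gene, was at -2.35 in this comparison (adjusted p = 0.0459), a call lost when any 1 library other than DKO library 1 was left out (adjusted p up to 0.225). In p65 KO the gene called and lower was Gclc (-1.33), whose product is part of glutamate-cysteine ligase in glutathione synthesis, and Hmox1, which encodes heme oxygenase, was called and higher (1.44). The most abundant gene, Gstp1, had 198494, 133921 and 119845 normalized counts in control, 63296 and 65479 in Nrf2 KO, 98039 and 88724 in p65 KO, and 100729, 91371 and 68560.3 in DKO, all knockouts below control.

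Regulators of glucuronosyltransferase genes made up a list of 14. Besides Nfe2l2 itself, which is one of them, 1 gene was called and lower in Nrf2 KO and in DKO, and 2 in DKO against p65 KO, while 2 were called and higher in p65 KO, Ahr and the low gene Cux2. The median log2 fold change was -0.02 for Nrf2 KO, 0.37 for p65 KO and -0.04 for DKO. Nr1i3, which encodes the xenobiotic receptor CAR, had 4301, 4522 and 4679 normalized counts in control, 1966 and 1892 in Nrf2 KO, 6446 and 5794 in p65 KO, and 1329, 1384 and 2148 in DKO. It was low in Nrf2 KO and DKO and highest in p65 KO. Its log2 fold change was -1.22 in Nrf2 KO (adjusted p = 0.0172 from edgeR), -1.47 in DKO (adjusted p = 0.00133) and -1.92 in DKO against p65 KO (adjusted p = 0.000791). The call in Nrf2 KO was lost without control library 1, control library 2 or either Nrf2 KO library (adjusted p up to 0.248). Ppara, which encodes a receptor for fatty acids, was at -1.16 in DKO against p65 KO (adjusted p = 0.0339), lost without p65 KO library 1, p65 KO library 2, DKO library 1 or DKO library 3 (adjusted p up to 0.202). Ahr, which encodes the aryl hydrocarbon receptor, was at 1.01 in p65 KO (adjusted p = 0.0498), lost when any 1 control or p65 KO library was left out (adjusted p up to 0.203) and by limma (adjusted p = 0.05004). The call of Cux2 was lost without any 1 library of control, Nrf2 KO or p65 KO (adjusted p up to 0.228). Hnf4a had the highest mean of the list, with 20838 ± 1465 normalized counts in control (SD, n = 3), and was not called.

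The genes whose levels over the 10 libraries were most like those of the family were sought among 10176 genes, as a description, since the libraries share 4 genotypes and are not independent points. For the Ugt2 sum the highest Pearson correlations were 0.988 for Keg1, 0.974 for Pir, 0.970 for Ftl1, 0.970 for Aox1 and 0.969 for Gstm1. For Ugdh they were 0.985 for Entpd5, 0.975 for Gstm3, 0.971 for Txnrd1, 0.965 for Nqo1 and 0.963 for Degs1l.

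The identity of the cells was examined with marker genes. The 9 hepatocyte markers summed to 3892480, 3450040 and 4842940 normalized counts in control, 4717650 and 5510120 in Nrf2 KO, 4224200 and 3957490 in p65 KO, and 4338630, 4360230 and 4370880 in DKO, and Alb was the most abundant. The sums of each knockout overlapped with those of control. In DKO Tat, a tyrosine-degrading enzyme gene, was called and higher (1.62), and against p65 KO it was higher (1.89, lost without either p65 KO library, adjusted p up to 0.0962 from edgeR) and Cyp2e1 lower (-1.06, lost without either p65 KO library, DKO library 1 or DKO library 2, adjusted p up to 0.147). The genes called in Nrf2 KO included no marker of these or of other cell types. In those libraries the Kupffer cell sums were 765 and 243 normalized counts, those of endothelial cells 1379 and 743, and those of stellate cells 215 and 136. In DKO 1 endothelial marker (Lyve1) and 1 stellate marker (Dcn) were called and higher. Both calls depended on single libraries, since that of Lyve1 was lost without control library 1 or 2, either p65 KO library, DKO library 1 or DKO library 2 (adjusted p up to 0.11), and that of Dcn without control library 1 or 2, either p65 KO library or DKO library 2 (adjusted p up to 0.145).

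The other lists of markers are given by their sums. Those of other myeloid cells (7 genes, Lyz2 most abundant) summed to 89.4, 169 and 129 normalized counts in control, 157 and 72.7 in Nrf2 KO, 716 and 521 in p65 KO, and 449, 370.3 and 277 in DKO, with 3 called and higher in p65 KO and 1, Lyz2, in DKO. Of the 3, Ccr2 was lost without control library 1, control library 3 or p65 KO library 1, and Cd68 without p65 KO library 1 (adjusted p up to 0.18 from edgeR). In DKO the call of Lyz2 was lost without any 1 control library, either p65 KO library, DKO library 1 or DKO library 2 (adjusted p up to 0.129 from edgeR), and with libraries scaled to equal totals (adjusted p = 0.061). Markers of T or NK cells (6 genes, Cd4 most abundant) summed to 149, 83.0 and 66.4 normalized counts in DKO and to at most 62.3 in the other libraries, and those of B cells (4 genes, Cd79b most abundant) to at most 9.14. Cholangiocyte markers (5 genes, Sox9 most abundant) summed to between 151 and 444, with both Nrf2 KO libraries lowest (151 and 196) and a median log2 fold change of -1.06 in Nrf2 KO, and erythroid markers (4 genes, Hbb-bs most abundant) to between 35.9 and 1141, the highest in DKO library 1. In the T or NK cell list Cd4 was called and higher in DKO against control (1.96), lost without control library 1, control library 3 or DKO library 1 (adjusted p up to 0.0856 from edgeR). Against p65 KO, Cd4 was higher in DKO (2.21, adjusted p up to 0.184 without a Nrf2 KO library, a p65 KO library or DKO library 1), and Cd5l and Dcn were lower (-1.53 and -1.94). Those calls were lost for Cd5l when any 1 library other than control library 1 and the Nrf2 KO libraries was left out (adjusted p up to 0.262), and for Dcn without either p65 KO library, DKO library 1 or DKO library 3 (adjusted p up to 0.129). Against p65 KO the call of Cd5l was also lost by limma (adjusted p = 0.0839). By edgeR it was lost with upper quartiles (adjusted p = 0.0504) and with the replicate block (0.105). That of Dcn was lost with only the 2 genotypes compared and with the block (adjusted p = 0.0563 and 0.0559 from edgeR). In the B cell, cholangiocyte and erythroid lists no gene was called against control. No marker of any list was at 0 in every library.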

How the data were processed

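RNA of isolated hepatocytes was sequenced as single-end reads of 100 bases from a stranded mRNA library, 1 library per mouse. The authors quantified the reads with Salmon 1.10.3 against GENCODE transcripts of GRCm39 and deposited estimated counts per gene as whole numbers. The step from transcripts to genes is not given in the sources used here. Although the name of the deposited table calls the values normalized, library totals and size factors (0.879 to 1.26) differed, and they were used as estimated counts. Groups came from the sample labels, and every column was assigned to a sample.

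The test was edgeR 4.0.16 (R 4.3.3) after TMM normalization, for genes with a summed count of at least 10, in 1 model of the 4 genotypes and no covariate, because 2 genotypes had 2 mice. P-values were adjusted over all genes tested. A normalized count is the count over the library's TMM-scaled size, with the mean size set to 1. Comparisons that share control libraries are not independent of each other. No p was computed for summed genes. Replicates differed by far more than sampling noise (chi-square per degree of freedom between 44.8 and 204).

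Gene names and positions came from GENCODE on GRCm39, which held 21926 of the 21939 identifiers, and the windows before genes from RefSeq on GRCm39. The lists were other glucuronosyltransferases, UDP-glucuronate supply and use, other conjugating enzymes, glucuronide transporters, Nrf2 targets, regulators, and markers of 9 kinds of cells. The members and lists were chosen with earlier results of these data known. From each list the text names the gene with the highest mean and up to 4 called genes with the largest log2 fold change per comparison, at a mean of at least 50 normalized counts; other names were added after values had been seen. Some genes of these lists are not reported here. The genes most alike are the 5 with the highest Pearson correlation of log2 normalized counts plus 1. The alternatives were DESeq2 1.42.0, DESeq2's size factors in edgeR, limma 3.58.1 on log2 values plus 1, equal totals, equal upper quartiles, no filter, a mean of at least 10 counts, only the 2 genotypes compared, the replicate number as a block, the sum without its most abundant gene, and each library left out. Figures were drawn with matplotlib 3.10.9.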

Additional observations from a re-analysis of the deposited data

Results flagged for a closer look

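In some genes a knockout went with opposite shifts, without overlap, depending on the state of the other factor. The difference between these shifts is the interaction, which did not pass edgeR's quasi-likelihood test in any of them. How many of all genes tested had such shifts was not counted. Ugt2b38 and Ugt1a1 share 24.2% and 69.6% of their stretches of 100 bases with another gene, so their single values are uncertain. For Ugt2b38 both single knockouts lay below control while DKO lay above both, with an interaction of 2.80 on the log2 scale (adjusted p = 0.175), which was 2.02 without DKO library 1 and 3.32 without Nrf2 KO library 2. For Ugt1a1 all p65 KO libraries lay above control and all DKO libraries below Nrf2 KO, with an interaction of -0.80 (adjusted p = 0.255). Gulo was higher in Nrf2 KO than in control and lower in DKO than in p65 KO, with -1.42 (adjusted p = 0.117), and Slco1b2 likewise with -0.72 (adjusted p = 0.257). Gstp1 was lower in p65 KO than in control and higher in DKO than in Nrf2 KO, with 1.12 (adjusted p = 0.17).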

How the results depend on the processing

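Under the alternatives, all calls of the 9 genes kept their direction. The number called in Nrf2 KO against control was 5 and lay between 2 and 5 when single libraries were left out, and in DKO against p65 KO it was 4 and lay between 2 and 4. In these fits a group of 2 mice is left with 1, which is assumed to vary like the others. With the replicate block the count in Nrf2 KO was 3, since Ugt2b1 (-1.06, adjusted p = 0.0515) and Ugdh (-1.55, adjusted p = 0.055) missed edgeR's threshold, and the block changed no other call of the 9 genes. It also ended those of Entpd5, Abcc3 and Abcg2 in Nrf2 KO (adjusted p between 0.0512 and 0.0644) and of Nnmt in DKO against Nrf2 KO (0.0593). The numbers do not pair the samples, because the 13 pairs with the same number had correlations of their deviations between -0.23 and 0.11, and 2 of 10 libraries were most like one of their own number. Without Ugt2b5, the most abundant gene, the log2 ratio of the Ugt2 sum was -1.04 in Nrf2 KO, -0.92 in DKO and -0.67 in DKO against p65 KO. With equal totals it was -1.16 in DKO against p65 KO and -0.019 in DKO against Nrf2 KO. Leaving out single libraries moved the ratio of DKO against p65 KO between -0.99 and -0.78. The cause of these shifts was not tested. Equal totals moved the median interaction of genes averaging 50 or more normalized counts by -0.27, and the interaction could not be run with only the 2 genotypes compared. Among 129 results of named genes, calls were lost in 14 with the block, 10 with only the 2 genotypes, 4 with limma, 4 with equal totals, 1 with the mean filter and 1 with upper quartiles, many of them of marker genes. With only the 2 genotypes, edgeR lost Osgin1, Ppara and Cyp2e1 in DKO against p65 KO (adjusted p = 0.133, 0.0759 and 0.098). Slco1a4 in p65 KO was lost there as well (adjusted p = 0.0501 from edgeR). Over all genes, DESeq2 called 135 in place of 75 in Nrf2 KO, 534 in place of 325 in DKO, 453 in place of 243 in DKO against p65 KO, 296 in place of 59 in DKO against Nrf2 KO and 249 in place of 62 for the interaction. In DKO against p65 KO the count was 504 with equal totals and 124 with only the 2 genotypes. In DKO against Nrf2 KO it was 112 without the filter, 32 with only the 2 genotypes and 37 with the block, and for the interaction 118 with equal totals and 137 without the filter. Leaving out single libraries gave between 18 and 84 genes in Nrf2 KO, 330 and 952 in p65 KO, 146 and 315 in DKO, 72 and 299 in DKO against p65 KO, 19 and 81 in DKO against Nrf2 KO, and 8 and 119 for the interaction. The counts of Ugt2b37, between 22 and 147 per library, limit what can be said of it.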
